A study of Macaca mulatta with 30 samples.

Results

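The insulin-like growth factor (IGF) genes described here are the ligands IGF1 and IGF2, the receptor IGF1R, the binding proteins IGFBP2 to IGFBP6, and the receptor substrates IRS1 and IRS2. They were chosen by gene symbol, through the Ensembl rhesus identifier, and not by their values, although earlier results of these data were known. Of these 10 genes, 6 were found among the 30246 identifiers of the lung table and 8 among the 32386 of the hippocampus table, and all of those passed the minimum read filter. IGF1 (ENSMMUG00000002235), IGF1R (ENSMMUG00000012305), IGFBP3 (ENSMMUG00000013764), IGFBP4 (ENSMMUG00000009384), IRS1 (ENSMMUG00000019467) and IRS2 (ENSMMUG00000021790) were measured in both tissues. IGF2 (ENSMMUG00000047449) and IGFBP5 (ENSMMUG00000041480) were measured in hippocampus alone, and IGFBP2 and IGFBP6 were not analysed here. No genome positions or sequences are given.

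IGF1 and IGF2 are secreted peptides that drive fetal growth. They signal through the tyrosine kinase receptor IGF1R, which phosphorylates the adaptor proteins IRS1 and IRS2 and so recruits PI3 kinase and AKT. Binding proteins hold IGFs in tissue and blood, IGFBP3 being the main carrier in the circulation. Binding proteins can block IGFs at the receptor or deliver them to it, and proteases that cut them release the ligand.

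RNA was sequenced from fetuses of rhesus macaques (Macaca mulatta, wild type) whose mothers had been injected intramuscularly. In lung, 5 groups of 3 fetuses were labelled as saline controls, Celestone (0.25 mg/kg) after 4 h or 5 days, and betamethasone-acetate (0.125 mg/kg) after 6 h or 5 days. Celestone, a mixture of betamethasone-phosphate and betamethasone-acetate, is called the clinical drug below, and betamethasone-acetate is called Beta-Ac. In hippocampus, 3 groups of 5 fetuses, all 5 days after injection and between 130 and 136 days of gestation by their labels, were named CTL (saline), BAC and CEL. The treatment and dose labels of the hippocampus put BAC with the mixture at 0.25 mg/kg and CEL with Beta-Ac at 0.125 mg/kg, the reverse of the lung labels of the same animals, so the hippocampus groups are given by library name. The labels gave no interval between injection and delivery for the lung controls. Each library is 1 animal, and 9 animals had a library in both tissues. The lung labels give a gestational age of 124 to 130 days, while the hippocampus labels of the 9 shared animals give 131 to 136 days. The labels alone leave the age of these fetuses uncertain. The authors' stated age at treatment lies in the former range and their mean age at delivery in the latter.

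The reads counted on genes numbered from 14.1 to 45 M in a lung library and from 18.3 to 29.3 M in a hippocampus library. Levels are counts per 1 M reads (CPM), normalized by TMM within a tissue. CPM is not corrected for gene length, so levels are compared between libraries and not between genes. Control animal 15-92 stood apart in both tissues, with 1.03% of lung reads and 0.75% of hippocampus reads on a block of consecutive identifiers that took 4.55 to 6.67% in the other lung libraries. In hippocampus BAC235 shared this low share (0.721%, against 7.37 to 17.4% elsewhere), and CTL212 carried choroid plexus genes, with a summed level of 929 CPM over 3 of 6 listed markers against 7.21 to 20.2 CPM in the other 14 libraries. In lung, all 3 animals at 4 h after the clinical drug had numbers beginning with 15, as had controls 15-92 and 15-101, whereas the animals at 6 h and at 5 days had numbers beginning with 16 or 17. Animal series and treatment cannot be told apart between 4 h and the later times, but the comparison of 4 h with saline holds controls of the same series. A gene was called where it changed by 1.5-fold or more and edgeR's quasi-likelihood test gave both a p under 0.05 and, adjusted over all tested genes, a p under 0.1. The adjustment was Storey's for lung and that of Benjamini and Hochberg for hippocampus.

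The first comparison asked how the lung differed from saline soon after the clinical drug. At 4 h, 2 of the 6 IGF genes rose and none fell, where 7.4% of the 17644 tested genes were called. IGFBP3, the circulating carrier, rose 3.49-fold and IRS2, an adaptor of the insulin and IGF1 receptors, rose 2.88-fold. The other 4 genes did not pass the thresholds. The median log2 fold change of the 6 was 0.22, against 0.02 over all tested genes.

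IGFBP3 was at 44.9, 32.0 and 35.5 CPM in the 3 saline lungs. At 4 h after the clinical drug it was at 132, 165 and 95.7 CPM, so the lowest treated lung held more than the highest control. The controls of the same animal series, 15-92 and 15-101, were those at 44.9 and 32.0 CPM. In the same comparison 11.1% of tested genes had all treated libraries above all controls. IGFBP3 thus rose by 1.80 on the log2 scale (SE 0.31, n = 3 per group; edgeR adjusted p = 0.00206). It ranged from 1.59 to 1.97 and stayed called in all 15 alternative analyses.

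At 6 h after Beta-Ac the 3 lungs held IGFBP3 at 52.3, 32.4 and 75.4 CPM. Animal 16-131 lay within the control range, and the others lay above it. IGFBP3 differed from saline by 0.51 on the log2 scale (95% interval -0.14 to 1.16; edgeR adjusted p = 0.408). The early groups differ in drug, dose, time and animal series. Their direct comparison gave IGFBP3 as the 1 IGF gene called of 6, where 6.74% of genes were called. Its level after the clinical drug was 2.46-fold that after Beta-Ac (log2 difference 1.30, SE 0.30; edgeR adjusted p = 0.0203).

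At 5 days IGFBP3 was not called for either drug. Its levels were 43.4, 38.2 and 36.5 CPM after the clinical drug and 54.7, 47.4 and 25.5 CPM after Beta-Ac. All 3 lungs lay within the control range after the clinical drug, and after Beta-Ac they lay on both sides of it. The log2 fold changes against saline were 0.07 (95% interval -0.58 to 0.72) and 0.18 (95% interval -0.47 to 0.83). Between 4 h and 5 days after the clinical drug IGFBP3 differed by 1.73 on the log2 scale (SE 0.31; edgeR adjusted p = 0.00204), and it was again the 1 called gene of the 6, where 10.4% of all tested genes were called.

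**Figure D1:**
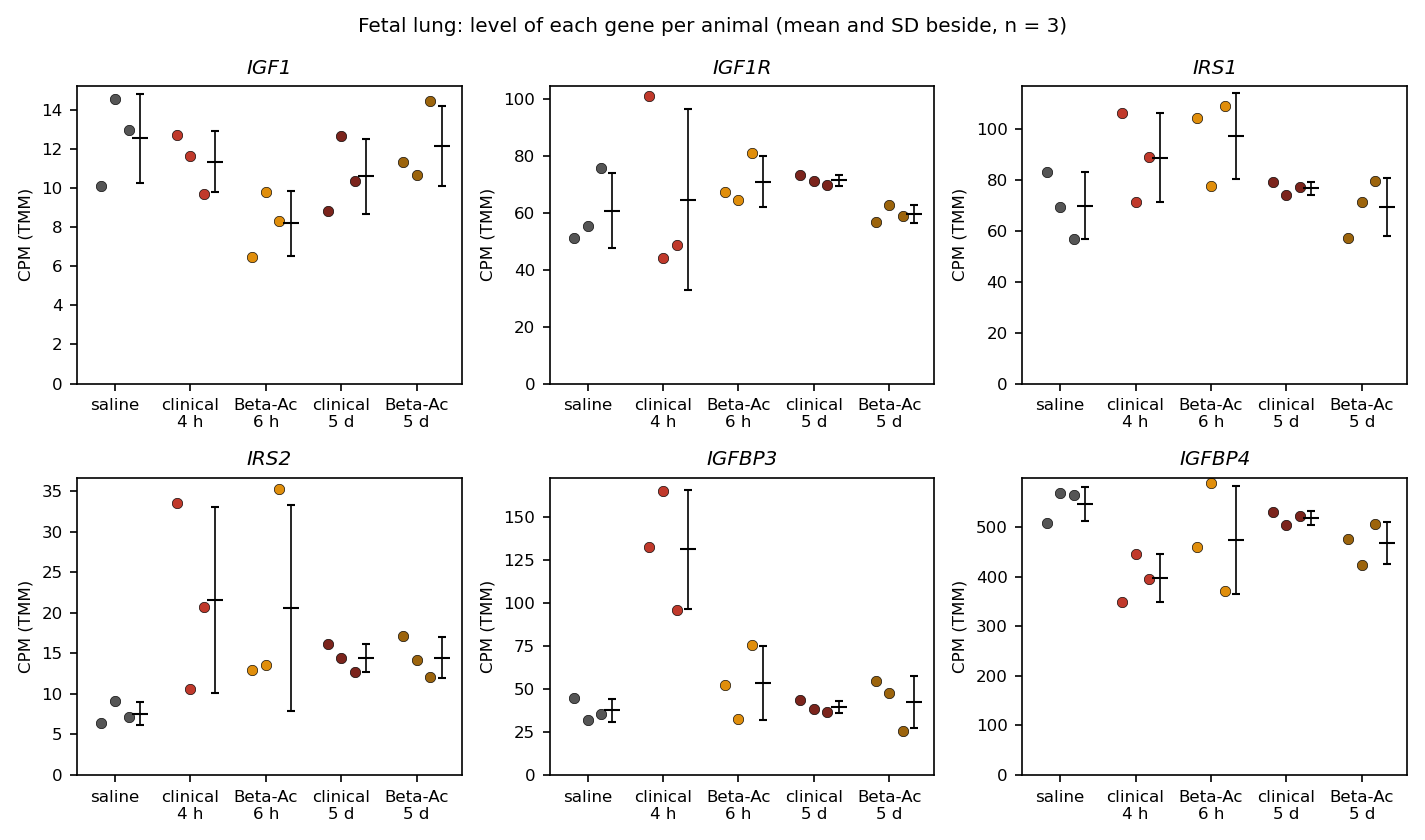
Level of the 6 IGF genes in fetal lung in CPM (linear axes from 0), 1 point per animal, by treatment group (n = 3), with the group mean and SD beside the points. IGFBP3 stood at 95.7 to 165 CPM at 4 h after the clinical drug against 32.0 to 44.9 CPM after saline, and every treated lung lay above the highest control for IRS2.

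IRS2 was at 6.37, 9.17 and 7.18 CPM in the saline lungs. It was at 33.5, 10.5 and 20.7 CPM at 4 h after the clinical drug and at 12.9, 13.6 and 35.2 CPM at 6 h after Beta-Ac. In both early groups 1 animal was far above another of its group, and yet no treated lung overlapped the controls. IRS2 rose by 1.53 on the log2 scale (SE 0.41; edgeR adjusted p = 0.0282) after the clinical drug. The call was lost when animal 15-81 was left out (1.04, adjusted p = 0.110 by edgeR) and when control 15-92 was left out (1.40, adjusted p = 0.106 by edgeR).

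After Beta-Ac the change of IRS2 at 6 h was of similar size but was not called (log2 fold change 1.44, SE 0.41; edgeR adjusted p = 0.179). No IGF gene was called there, where 0.442% of genes were called, although IGF1, IRS1 and IRS2 had an unadjusted p under 0.05, as did 11.5% of tested genes. IRS2 lay above all controls there, as did 9.03% of genes. DESeq2 called IRS2 in this comparison (1.43, adjusted p = 0.0199), and it was the 1 IGF gene that DESeq2 called. Without animal 17-254 the change of IRS2 was 0.81. The direct difference in IRS2 between the early groups was 0.09 on the log2 scale, with a 95% interval from -0.75 to 0.92. Both treatments are compared with the same 3 controls.

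At 5 days IRS2 was at 16.1, 14.4 and 12.7 CPM after the clinical drug and at 17.1, 14.2 and 12.02 CPM after Beta-Ac. All 6 lungs were above the highest control, and the share of all tested genes so placed at 5 days alone is not reported here. On the log2 scale IRS2 was 0.93 above saline with each drug (SE 0.41 for both) and with both drugs pooled (95% interval 0.15 to 1.71; unadjusted p = 0.0225 and adjusted p = 0.719 by edgeR). No IGF gene was called at 5 days by edgeR or DESeq2. By edgeR the share of called genes was 0% with the clinical drug, 0.00567% with Beta-Ac and 0.0113% with both pooled. At an unadjusted p under 0.05 edgeR gave IRS2 alone of the 6 in each of these, against 4.39%, 6.42% and 6.17% of all tested genes. Over both times and drugs, all 12 treated lungs held more IRS2 (10.5 to 35.2 CPM) than any control (6.37 to 9.17 CPM), and 0.357% of the tested genes had this order.

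IGFBP4, which holds IGFs until the protease PAPPA cuts it, was lower at 4 h after the clinical drug without reaching the fold threshold. It was at 508, 568 and 566 CPM after saline and at 349, 446 and 395 CPM after the clinical drug, with no overlap (10.2% of tested genes had all treated libraries below all controls). On the log2 scale the difference was -0.46 (SE 0.14; edgeR adjusted p = 0.0485), a ratio of 0.725. After Beta-Ac at 6 h the levels were 460, 588 and 372 CPM, on both sides of the controls. At 5 days IGFBP4 differed from saline by -0.08 (clinical drug) and -0.22 (Beta-Ac) on the log2 scale, neither of them called. All lungs at 5 days after Beta-Ac (423 to 506 CPM) lay below the lowest control (508 CPM). The share of tested genes so placed is not reported here.

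IGF1 had at least 128 reads in each lung library. It was at 10.1, 14.6 and 13.0 CPM after saline and at 6.48, 9.80 and 8.34 CPM at 6 h after Beta-Ac. The groups did not overlap, as for 7.28% of tested genes in that direction. The difference was -0.61 on the log2 scale (SE 0.21), but the adjusted p was 0.247 by edgeR and IGF1 was not called. At 4 h after the clinical drug IGF1 was at 12.8, 11.7 and 9.70 CPM, and its log2 fold change was -0.14 (95% interval -0.58 to 0.30).

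The receptor IGF1R and the adaptor IRS1 did not pass the thresholds in any lung comparison with all animals included. The remaining one, 6 h against 5 days after Beta-Ac, called no IGF gene by edgeR or DESeq2 (0.261% of genes), and edgeR gave IGF1 and IRS1 an unadjusted p under 0.05, as it did 7.91% of genes. IGF1R was between 51.3 and 75.8 CPM after saline and at 101, 44.0 and 48.9 CPM at 4 h after the clinical drug, where animal 15-81, also the library with the most reads (45 M), stood above the others. Without 15-81 IGF1R was called lower at 4 h after the clinical drug than at 6 h after Beta-Ac (-0.62 on the log2 scale, edgeR adjusted p = 0.0245) and than at 5 days after the clinical drug (-0.64, edgeR adjusted p = 0.0122), and its difference from saline was -0.41 (edgeR adjusted p = 0.110). IRS1 was between 57.0 and 83.2 CPM after saline, at 106, 71.3 and 89.0 CPM at 4 h after the clinical drug and at 104, 77.9 and 109 CPM at 6 h after Beta-Ac. On the log2 scale it differed from saline by 0.35 (95% interval -0.03 to 0.73) after the clinical drug and 0.48 (95% interval 0.10 to 0.85; edgeR adjusted p = 0.275) after Beta-Ac.

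Between the drugs at 5 days no IGF gene was called, nor was any gene of the whole table (0%), while 3.15% of genes had an unadjusted p under 0.05 by edgeR and none of the 6 did. DESeq2 called 8 genes in that comparison. The log2 difference, clinical drug minus Beta-Ac, was -0.00 for IRS2 (95% interval -0.84 to 0.84), -0.11 for IGFBP3 (-0.75 to 0.53) and 0.15 for IGFBP4 (-0.15 to 0.45). These intervals are wide enough to hold a 1.5-fold difference for IRS2 and IGFBP3.

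**Figure D2:**
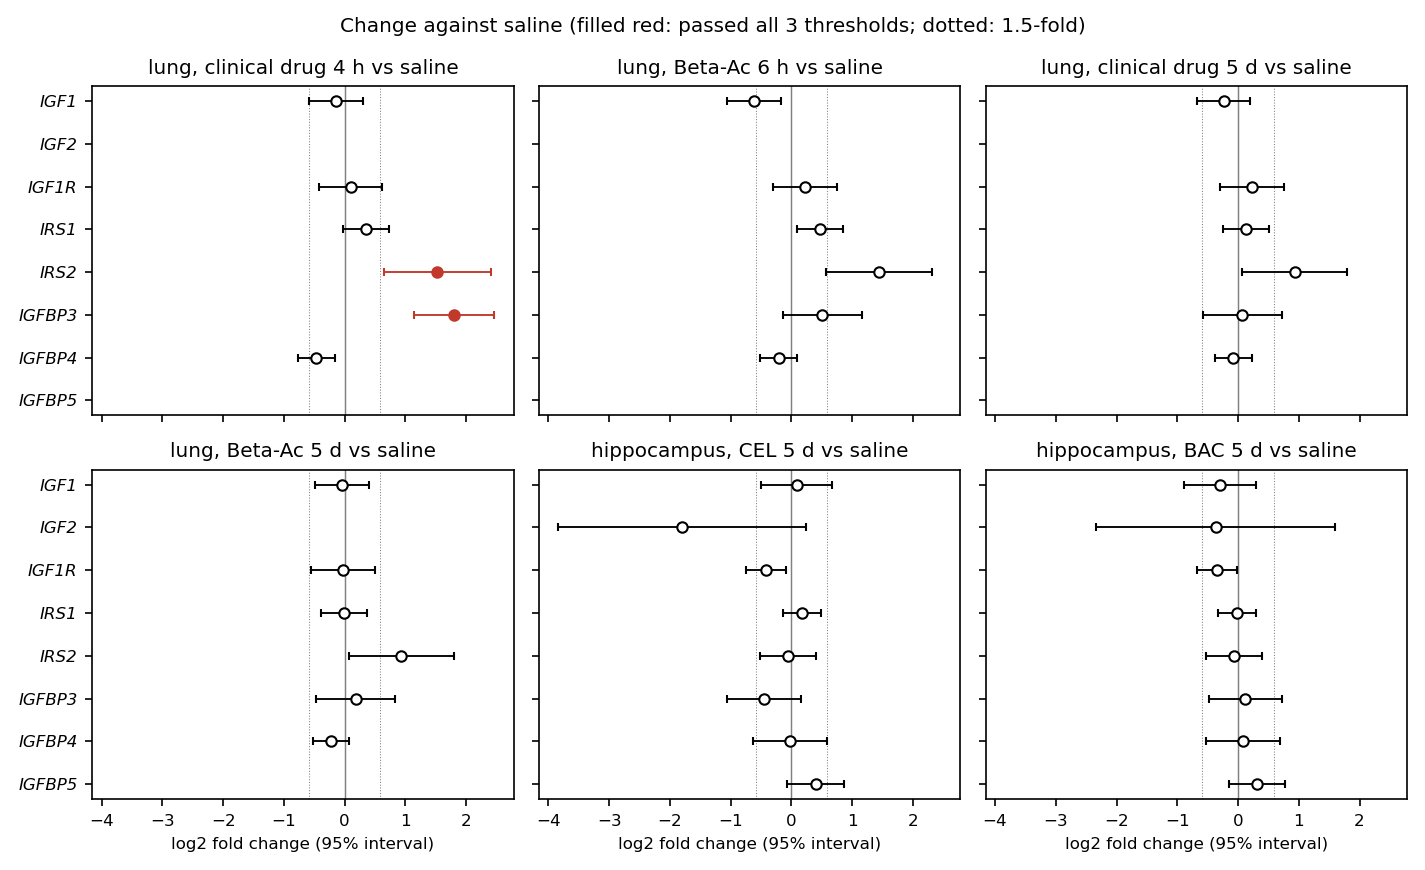
Log2 fold change against saline with its 95% interval for each measured IGF gene, 1 panel per comparison in lung (n = 3 per group) and hippocampus (n = 5 per group); filled red points passed all thresholds and dotted lines mark 1.5-fold. Of all panels, the one for the lung at 4 h after the clinical drug holds the called genes, IGFBP3 at 1.80 and IRS2 at 1.53.

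Some cell type markers also stood apart from saline. At 4 h after the clinical drug the summed level of 7 alveolar epithelial genes was 12840 to 18730 CPM against 7295 to 10680 CPM after saline. The sum of 4 pericyte genes was 1270 to 1329 CPM against 1656 to 1795 CPM, and that of 3 of 4 lymphocyte genes was 1.42 to 5.07 CPM against 6.48 to 11.5 CPM. The sum over 5 of 7 mesenchymal genes overlapped, at 11810 to 14160 CPM against 10640 to 16440 CPM. At 6 h after Beta-Ac, where IRS2 lay above all controls, the sum of 3 of 4 airway genes was 201 to 467 CPM against 62.1 to 173 CPM after saline. At 5 days after Beta-Ac, where it did so again, the alveolar epithelial sum was 11100 to 12600 CPM and above saline. Those of 5 of 6 endothelial genes (2423 to 2604 CPM against 2799 to 3330 CPM), of the pericyte genes (1255 to 1582 CPM) and of 3 of 4 cell cycle genes (40.4 to 47.4 CPM against 54.7 to 80.9 CPM) were below it. At 5 days after the clinical drug every listed marker sum overlapped saline. In whole tissue, fewer cells of a type and less RNA per cell cannot be told apart, and the part of these shifts in the IGF gene values was not tested.

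The wider IGF axis covered further ligands, receptors, carriers, proteases and their inhibitors, the adaptor IRS4 and the mRNA-binding proteins IGF2BP1, IGF2BP2 and IGF2BP3. Of these 19 listed genes, 12 were tested in lung. The clinical drug at 4 h left 1 higher and 2 lower, where 7.4% of all tested genes were called and 3.46% were called higher. INSR, the insulin receptor, which pairs with IGF1R in hybrid receptors, was at 47.8, 26.0 and 25.2 CPM against 18.3, 17.7 and 24.4 CPM after saline (log2 fold change 0.72, edgeR adjusted p = 0.0527). Without animal 15-81 its value was 0.33, with an adjusted p of 0.213 by edgeR, and the call was also lost without control 15-92 (0.63) or control 15-101 (0.64).

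IGFALS, the acid-labile subunit that joins IGF and IGFBP3 in the large circulating complex, fell from 7.14, 3.83 and 4.72 CPM to 2.62, 2.84 and 2.07 CPM (log2 fold change -1.06, edgeR adjusted p = 0.0119). That call was lost with only the libraries of the groups compared in the fit (edgeR adjusted p = 0.106), and without control 15-92, the highest of the controls, the value was -0.79. STC2, an inhibitor of the IGFBP4 protease PAPPA, fell from 54.8, 78.0 and 48.8 CPM to 18.4, 11.1 and 34.3 CPM (log2 fold change -1.51, edgeR adjusted p = 0.00746). Each was also lower after the clinical drug than at 6 h after Beta-Ac (log2 differences -0.74 and -0.97, edgeR adjusted p = 0.0590 and 0.0568). The difference in IGFALS was no longer called without animal 15-97, 16-123 or 16-131, and that in STC2 without 15-85, 16-131 or 17-254. No gene of the list was called at 6 h after Beta-Ac or at 5 days against saline.

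Of 41 genes that act below the receptors, 36 were tested in lung, and at 4 h after the clinical drug 7 rose and none fell, where 3.46% of all tested genes rose. The median log2 fold change over the 36 was 0.06, against 0.02 over all tested genes. The 7 included the forkhead factors FOXO1, FOXO3 and FOXO4, which AKT holds out of the nucleus and which act when insulin and IGF signals are low. FOXO3 was at 39.3, 40.4 and 48.8 CPM after saline and at 248, 94.4 and 125 CPM after the clinical drug (log2 fold change 1.87, SE 0.33; edgeR adjusted p = 0.00282), and without animal 15-81 the value was 1.34, still called. FOXO1 rose by 1.23 and FOXO4 by 0.63 on the log2 scale (edgeR adjusted p = 0.0160 and 0.0190), the latter call being lost without animal 15-81. At 6 h after Beta-Ac none of these factors was called, but all lay above every control, as did 9.03% of tested genes. FOXO3 was then at 73.2 to 167 CPM, FOXO1 at 18.8 to 43.6 CPM and FOXO4 at 23.2 to 30.4 CPM. Saline lungs held FOXO1 at 15.5 to 17.0 CPM and FOXO4 at 19.9 to 21.2 CPM. In each, animal 17-254 stood highest after Beta-Ac.

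PIK3R1, the regulatory subunit of PI3 kinase that binds IRS proteins, was called higher after both treatments. It was at 85.7, 101 and 113 CPM after saline, at 344, 181 and 225 CPM at 4 h after the clinical drug and at 185, 174 and 211 CPM at 6 h after Beta-Ac. The log2 fold changes were 1.32 (SE 0.19; edgeR adjusted p = 0.000632) and 0.93 (SE 0.19; edgeR adjusted p = 0.0588). It was the 1 gene of the 36 called after Beta-Ac, and that call was lost without control 15-92, control 15-101 or animal 17-254.

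Among the genes that rose at 4 h were also a pair known as restraints on the pathway. SESN1, a sestrin that limits mTOR complex 1, was at 195, 176 and 177 CPM against 110, 87.9 and 112 CPM after saline (log2 fold change 0.82, edgeR adjusted p = 0.000313). GRB10, an adaptor that inhibits the insulin and IGF1 receptors, rose by 0.89 (edgeR adjusted p = 0.000844). Against Beta-Ac at 6 h, 2 of the 36 were higher after the clinical drug, namely SESN1 (log2 difference 0.83) and RICTOR, a subunit of mTOR complex 2 (0.71, not called without animal 15-85), where 2.62% of genes were higher.

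Over the 15 lung libraries the tested genes whose log2 CPM followed IGFBP3 most closely were MARK3, IKBKB and MAP3K6, with a Pearson r of 0.92 each. Those closest to IRS2 were SIX4 (0.91), GNE (0.90) and WNT9A (0.88). These are descriptions over libraries that share treatment and batch.

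In the hippocampus the question was whether either drug left a difference from saline at 5 days. None of the 8 IGF genes was called in the CEL libraries, where 7.86% of the 17390 tested genes were called, nor in the BAC libraries (0%), nor in both pooled (3.42%), and DESeq2 called none either. At an unadjusted p under 0.05 edgeR gave IGF1R alone of the 8 in each, against 30.6%, 12.3% and 25.3% of all tested genes. CEL and BAC libraries share the controls. Compared directly they gave no called gene (0%), and no IGF gene had an unadjusted p under 0.05 by edgeR (13.5% of tested genes did). DESeq2 called 186 genes there, none of them an IGF gene.

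The receptor IGF1R came closest. It was at 42.9, 47.6, 39.9, 48.1 and 38.7 CPM in the CTL libraries and at 31.4, 39.6, 31.5, 30.5 and 29.2 CPM in the CEL libraries, where CEL120 alone reached the control range. In the BAC libraries it was at 36.6, 38.9, 35.6, 20.3 and 39.8 CPM. In all, 7 of the 10 treated libraries lay below the lowest control and none above the highest. The share of all tested genes so placed was not counted. IGF1R differed from CTL by -0.42 on the log2 scale in CEL (SE 0.15; edgeR adjusted p = 0.0803), by -0.34 in BAC (SE 0.15; edgeR adjusted p = 0.384) and by -0.38 in both pooled (edgeR adjusted p = 0.0886), in each case under the fold threshold. The 3 controls with the highest IGF1R were sequenced in runs 0024 and 0162, which held controls alone. With the other runs alone the log2 fold change of CEL was -0.26.

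INSR and IGF2R, picked from the receptors of the axis after their values were seen, had lower means too. Their direction was known when they were picked, so it lends no support to that of IGF1R. The remaining receptors of the list are not reported here by name. INSR was at 36.6, 34.0, 32.5, 36.1 and 26.9 CPM in the CTL libraries and at 26.6, 23.5, 23.4, 22.4 and 22.4 CPM in the CEL libraries, with no overlap (10% of tested genes were so placed in that direction). Its log2 fold change was -0.49 (SE 0.13; edgeR adjusted p = 0.0281), again under 1.5-fold. IGF2R, the receptor that takes up and clears IGF2, was between 120 and 160 CPM in the CTL libraries and between 72.7 and 112 CPM in the CEL libraries (log2 fold change -0.57, edgeR adjusted p = 0.0570). With run in the model the values were -0.35 for INSR and -0.64 for IGF2R (edgeR adjusted p = 0.170 and 0.153). In the BAC libraries, without run in the model, the log2 fold changes were -0.53 for INSR and -0.47 for IGF2R, neither called.

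IGF2 varied more between animals than any other IGF gene in either tissue, by 52.7-fold over the 15 hippocampus libraries. It was at 17.0, 36.5, 15.6, 4.68 and 247 CPM in the CTL libraries, at 22.9, 149, 11.3, 6.96 and 57.8 CPM in the BAC libraries and at 40.0, 16.9, 9.88, 12.2 and 13.2 CPM in the CEL libraries. The groups overlapped throughout. IGF2 differed from CTL by -1.80 on the log2 scale for CEL (95% interval -3.84 to 0.24) and -0.37 for BAC (95% interval -2.34 to 1.60), neither called. Both rested on CTL212, without which they were -0.00 and 1.43.

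In brain, IGF2 is known as a product of the meninges and the choroid plexus. Across the 15 libraries IGF2 followed the summed level of 6 meningeal and fibroblast genes (COL1A1, COL1A2, COL3A1, DCN, LUM and FOXC1). On log2 values Pearson's r was 0.89 and Spearman's rho 0.90 (permutation p = 2e-05, the smallest that the permutations can give, and 4e-05; Benjamini-Hochberg 0.00016 and 0.00032 over 8 relations, 1 per IGF gene). Without CEL126 and CTL212, the libraries farthest from the median, r was 0.85, and within the 7 libraries of run 1630 it was 0.87. The marker sum ranged from 104 to 1004 CPM in the CTL, from 85.4 to 558 CPM in the BAC and from 59.1 to 239 CPM in the CEL libraries. CTL212 had the highest value of both.

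For the other 7 IGF genes the relation to the meningeal genes had an r between 0.03 and 0.47 over the 15 libraries, with permutation p of at least 0.0625 before adjustment. Within the 7 libraries of run 1630, however, IGFBP4 had an r of 0.79 and a rho of 0.86, close to those of IGF2 (0.87 and 0.93). The genes most like IGF2 over the 15 libraries were SLC13A4 (r = 0.95), C7 (0.94) and COL6A1 (0.94). The libraries share dissection, run and depth, and how far dissection sets these levels was not tested.

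**Figure D3:**
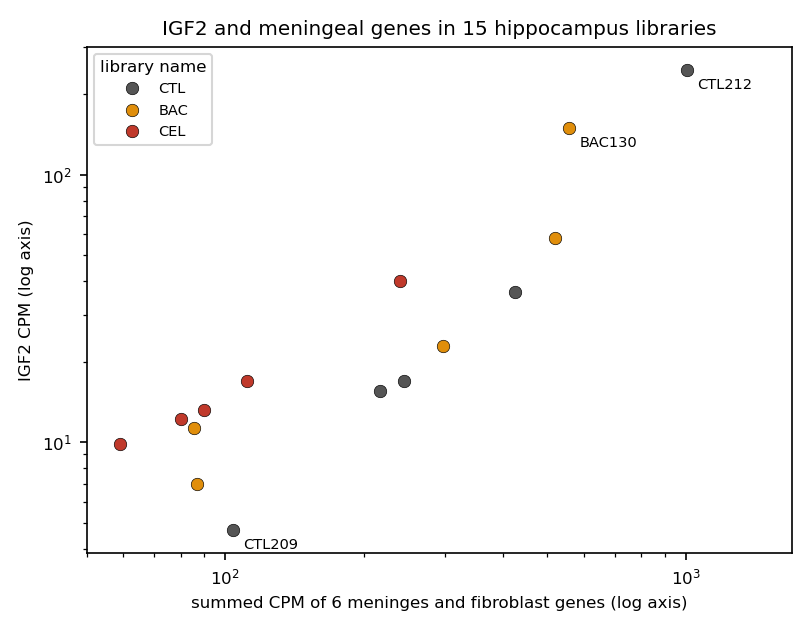
IGF2 level against the summed level of 6 meningeal and fibroblast genes in the 15 hippocampus libraries, both in CPM on log axes, 1 point per animal coloured by library name. IGF2 ranged from 4.68 to 247 CPM and was highest where the marker sum was highest, and the 3 groups overlapped along both axes.

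IGFBP5, the binding protein that holds IGFs in the extracellular matrix, was at 467, 552, 526, 393 and 557 CPM in the CTL libraries. It was at 726, 786, 614, 689 and 474 CPM in the CEL and at 489, 1024, 601, 364 and 627 CPM in the BAC libraries. Of the 10 treated libraries 7 lay above the highest control and 1 below the lowest, and the share of all tested genes so placed was not counted. The log2 difference from CTL was 0.40 for CEL (95% interval -0.06 to 0.86; edgeR adjusted p = 0.229) and 0.32 for BAC (95% interval -0.15 to 0.78; edgeR adjusted p = 0.578).

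IGFBP3, the IGF gene with the largest change in lung at 4 h, was not called in hippocampus, where all libraries are from 5 days. At 5 days it was not called in lung either. In hippocampus IGFBP3 ranged from 22.7 to 60.8 CPM in the CTL, from 23.7 to 64.7 CPM in the BAC and from 23.2 to 38.6 CPM in the CEL libraries. Against CTL its log2 fold change was -0.45 for CEL (95% interval -1.06 to 0.16) and 0.12 for BAC (95% interval -0.49 to 0.73). With both pooled it was -0.17. In the 9 animals that also have a lung library IGFBP3 turned in sign, to 0.27 for CEL and 0.47 pooled (edgeR adjusted p = 0.296 and 0.0659). IRS2 had log2 fold changes of -0.05 for CEL (95% interval -0.51 to 0.41) and -0.07 for BAC (95% interval -0.52 to 0.39). IRS1 had 0.17 for CEL (95% interval -0.14 to 0.49) and -0.02 for BAC (95% interval -0.33 to 0.30). With sequencing run in the model IRS2 turned in sign, to 0.32 for CEL and 0.33 for BAC (edgeR adjusted p = 0.326 and 0.489), as did IRS1 for CEL (-0.01).

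IGFBP4 split by sequencing run, and IGF1 did so in part. The treated animals of run 1630 had IGF1 at 24.7, 21.1 and 17.5 CPM (BAC) and at 28.2, 26.4 and 21.9 CPM (CEL), and those of run 0164 had it at 7.34 and 11.4 CPM (BAC) and at 18.1 and 12.7 CPM (CEL). With the controls included, IGF1 overlapped between the runs, at 17.5 to 28.2 CPM in run 1630 and at 7.34 to 25.6 CPM in run 0164, where CTL212 was the highest. IGFBP4 was higher in all 5 libraries of run 0164 (13.8 to 21.6 CPM) than in all 7 of run 1630 (7.61 to 12.2 CPM). How many of all tested genes separate these runs was not counted, so the split may not be particular to IGFBP4. Both runs held all 3 groups, and the animals of run 0164 all have numbers beginning with 17, so run and animal series cannot be told apart. Neither gene was called with or without run in the model.

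**Figure D4:**
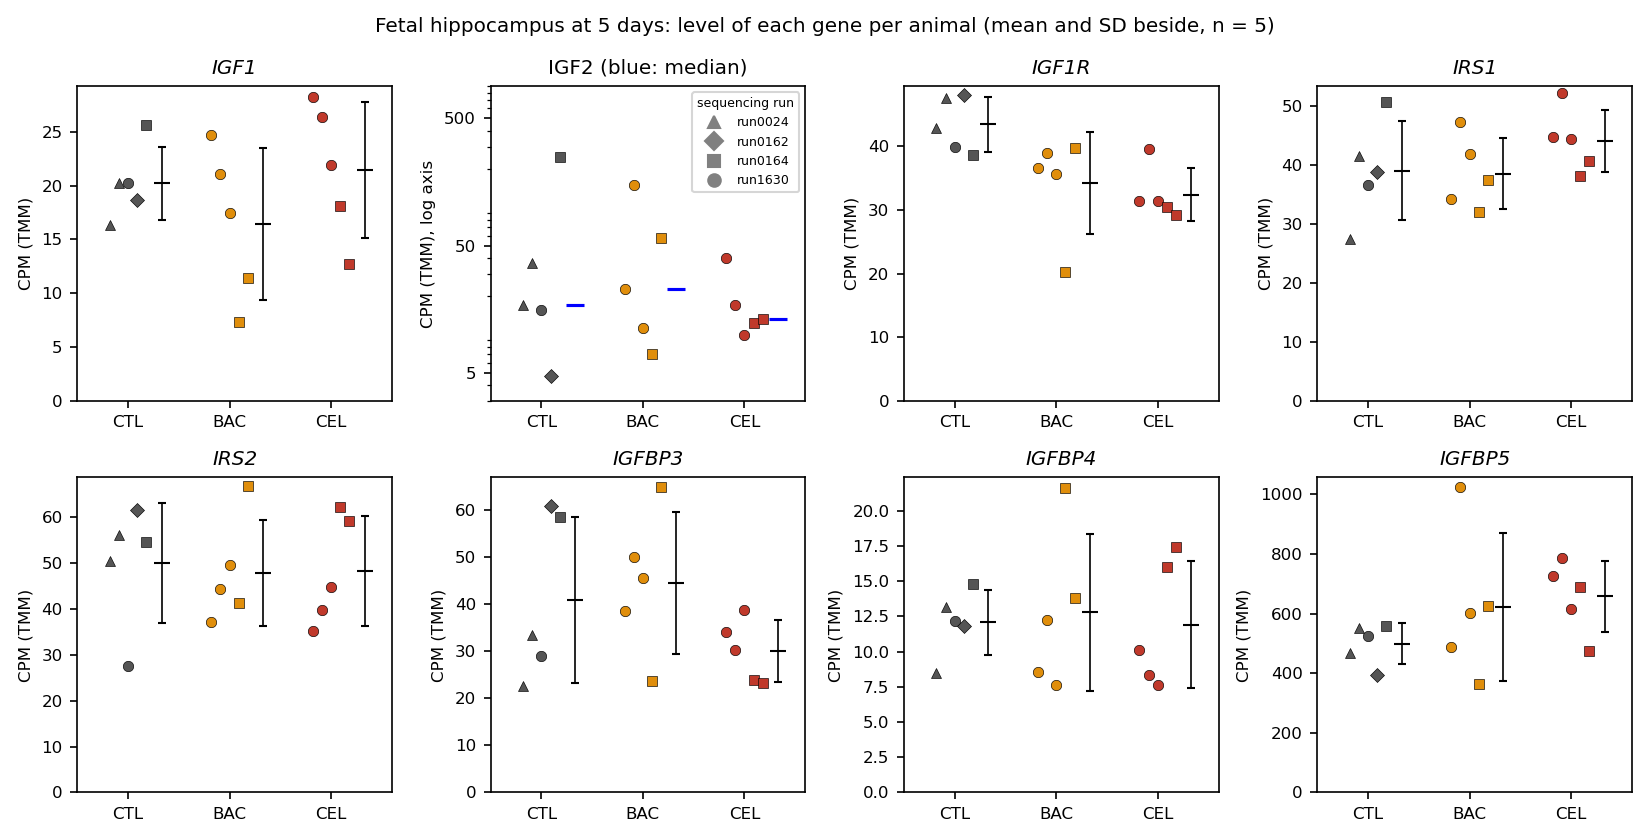
Level of the 8 IGF genes in fetal hippocampus in CPM, 1 point per animal with its shape giving the sequencing run, by library name (n = 5), with the mean and SD beside the points (for IGF2, on a log axis, the median). The groups overlapped for every gene, and IGF2 spanned 4.68 to 247 CPM in the controls. IGF1R was below the lowest control in 7 of 10 treated animals, and the share of all genes so placed was not counted.

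Among the wider axis in hippocampus 1 of 15 tested genes was called in the CEL libraries, where 7.86% of all tested genes were called, and it rested on a single control. IGFBP7, a low-affinity IGF binder of vessels, was at 865 CPM in CTL212 and between 27.8 and 31.5 CPM in the other 4 CTL libraries, against 20.02 to 39.1 CPM in the CEL libraries. Its log2 fold change was -2.81 (edgeR adjusted p = 0.0482) and -0.09 without CTL212. CTL212 is the library with choroid plexus genes.

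Of 35 tested genes below the receptors, 3 fell in the CEL libraries and none rose, where 5.35% of all tested genes fell. AKT2, a kinase activated through PI3 kinase, was at 35.0, 37.2, 40.4, 38.3 and 42.5 CPM in the CTL libraries and at 20.0, 22.6, 25.8, 24.7 and 22.8 CPM in the CEL libraries (log2 fold change -0.74, SE 0.15; edgeR adjusted p = 0.0140). With run in the model the call remained, and in the runs with all 3 groups alone the value was -0.82 (edgeR adjusted p = 0.103). PIK3IP1, an inhibitor of PI3 kinase, fell by 0.65 on the log2 scale (edgeR adjusted p = 0.0285). With run in the model its value was -0.32 (edgeR adjusted p = 0.317), and the call was lost without CTL209. In the BAC libraries none of the 35 was called.

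The same 9 animals, 3 per group, allowed the level of the 6 shared genes to be set side by side in lung and hippocampus at 5 days. Tissue and library preparation differ together and the tables were normalized separately, so these are descriptions. IGFBP4 was 34.5 to 68.7 times as high in lung as in hippocampus, with a median of 55.8, while its levels within each tissue spanned 423 to 568 CPM and 7.61 to 13.1 CPM. IRS2 was higher in the hippocampus of all 9 animals (2.17 to 7.91 times, median 3.52), as was IGF1 (1.21 to 3.19 times, median 1.97). IGF1R and IRS1 were lower in the hippocampus of all 9, with median ratios of 0.604 and 0.598. IGFBP3 was higher in hippocampus in 4 of 9.

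**Figure D5:**
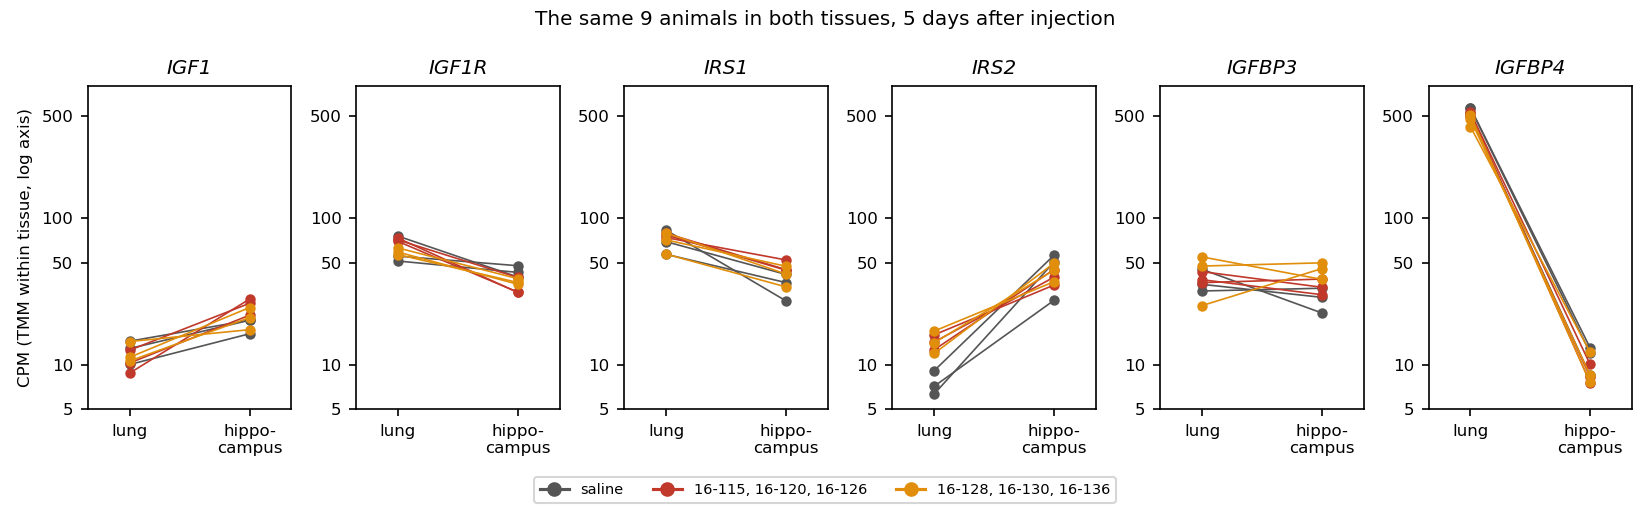
Level of the 6 IGF genes measured in both tissues of the same 9 animals, in CPM on a log axis shared by all panels, with a line joining lung and hippocampus of each animal and colours for the groups. IGFBP4 was at 423 to 568 CPM in lung and at 7.61 to 13.1 CPM in hippocampus, while IRS2 and IGF1 were higher in hippocampus in all 9 animals.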

How the data were processed

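The deposited files are 1 table of whole-read counts per Ensembl gene for each tissue. The authors aligned paired-end reads to the rhesus build MMUL1.0 and counted them with featureCounts, and the hippocampus libraries are labelled as poly(A)-selected. The submitters' notes name Bowtie 1.2.1.1 and featureCounts 1.5.1 for lung and Bowtie2 for hippocampus. The build is given without naming a tissue, and the tables share 20572 identifiers.

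Counts were analysed in R 4.3.3 with edgeR 4.0.16 (TMM, quasi-likelihood F-test, two-sided), 1 fit of all 15 libraries per tissue. The read filter kept genes with 7 or more reads in 3 or more lung libraries or 5 or more hippocampus libraries. SE is the fold change divided by the root of F. The prior count of fold changes is 0.125, and correlations use log2 CPM with a prior count of 2. Spread between animals, not counting error, set the precision. Alternatives were other normalization, filters, adjustments and tests (DESeq2 1.42.0 among them), sequencing run in the model, subsets of runs and animals, and each animal left out. The procedure was tested on simulated data.

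The genes and lists were chosen with earlier results of these data known. Text names all IGF genes, list genes called against saline or between drugs (up to 6 per list and comparison with the largest change), and the 3 genes most correlated with a called IGF gene, or with the most variable one where none was called. INSR and IGF2R in hippocampus were added after their values were seen. Some listed genes are counted but not reported here by name. Gene names came from Ensembl identifiers through a table of symbols.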

Additional observations from a re-analysis of the deposited data

Results flagged for a closer look

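In the 24 combinations of hippocampus gene and group, the lowest or highest of 5 animals stood far from the other 4, by a test for a single outlying value at the 95% level, in 4 cases. Chance alone flags about 5% of such groups where values are normally distributed. The test used CPM without logs, and IGF2 varied 52.7-fold, so the rate may differ here. IGF1R was lowest in BAC235 at 20.3 CPM, one of the pair of libraries with a low share of reads on the block of consecutive identifiers. IGF1R was highest of its group in CEL120 at 39.6 CPM. IGF2 was highest of its group in CEL115 at 40.0 CPM, and in CTL212, the library with choroid plexus genes, at 247 CPM.

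IGFBP3 differed in lung between the 4 h group and later groups, where animal series cannot be told apart from treatment and time. Its log2 level at 4 h after the clinical drug was 1.30 above that at 6 h after Beta-Ac and 1.73 above that at 5 days after the clinical drug, both by a direct test (edgeR adjusted p = 0.0203 and 0.00204).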

How the results depend on the processing

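The change of IGFBP3 at 4 h after the clinical drug was called in all 15 alternatives (log2 1.59 to 1.97), as were its differences from Beta-Ac at 6 h (1.04 to 1.63) and from 5 days (1.52 to 1.90). Leaving out 1 animal at a time, the number of IGF genes called was 1 to 2 for the clinical drug at 4 h against saline, where IRS2 was lost without 15-81 or 15-92, 1 to 2 against Beta-Ac at 6 h, where IGF1R was gained without 15-81 and IGF1 (0.62, edgeR adjusted p = 0.0914) without 16-131, 1 to 2 between 4 h and 5 days, where IGF1R was gained without 15-81, and 0 to 1 for Beta-Ac at 6 h, where IRS2 was gained without 16-131 (1.65, edgeR adjusted p = 0.0973). DESeq2 gave 1 in the last comparison. Without the fold threshold the number was 3 at 4 h after the clinical drug and 2 between 4 h and 5 days, IGFBP4 joining in both, and 1 in each of the CEL and pooled hippocampus comparisons, namely IGF1R. IGF2, leaving out 1 animal at a time, ranged from -1.37 to 1.43 for BAC and from -1.59 to 0.71 pooled, and turned in sign without CTL212 (1.43 and 0.71) and with the 9 animals that also have a lung library (1.42 and 0.69), which leave CTL212 out. The number of all genes called moved more than that of IGF genes. It was 884 to 2104 (1306 as reported) for the clinical drug at 4 h, 9 to 284 (78) for Beta-Ac at 6 h, 314 to 2389 (1189) between them, 1256 to 3306 (1833) between 4 h and 5 days, 5 to 196 (46) between 6 h and 5 days after Beta-Ac, 0 to 16 (0), 0 to 40 (1) and 0 to 33 (2) at 5 days for the clinical drug, Beta-Ac and both pooled, 0 to 8 (0) between the drugs at 5 days, 229 to 3816 (1366) for CEL, 0 to 184 (0) for BAC, 227 to 2317 (595) for both pooled and 0 to 186 (0) between CEL and BAC. Genes of the wider axis called ranged from 1 to 5 (3) at 4 h after the clinical drug and from 0 to 5 (1) for CEL, and genes below the receptors from 6 to 10 (7) and from 0 to 10 (3). Leaving out the block of consecutive identifiers, CTL092 with BAC235, or CTL212 was chosen after seeing the data. Of 1212 further values of IGF genes, 97 changed sign, none with a size above 0.47. The largest was that of IGFBP3 in the pooled hippocampus comparison with the 9 animals that also have a lung library (edgeR adjusted p = 0.0659). No paired analysis was possible because each animal is in 1 group per tissue and replicate numbers only follow the order of the samples. With 3 animals per lung group the 95% intervals of uncalled genes often include 1.5-fold changes, and no IGF gene was limited by read depth, the lowest having 107 reads.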
